A study of Rattus norvegicus with 16 samples.

Results

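The 8 genes described here are 7 cadherins and 1 protocadherin: Cdh1, Cdh2, Cdh3, Cdh5, Cdh6, Cdh11, Cdh13 and Pcdh19. They were found by their symbols in the gene-name column of the scanner files, where 10 probes carried them, and they stand among 20565 genes tested in all. Expression was measured on 16 single-colour Agilent arrays, each hybridised with amplified RNA of cells sorted by flow cytometry from cultured olfactory mucosa of rats, the nasal tissue in which the sensory neurons of smell and their glia lie. TRKA-TGF cells (4 arrays) are TRKA cells whose cultures were exposed to TGF-alpha (transforming growth factor alpha). TRKA cells (4 arrays), CD90 cells (4 arrays) and p75 cells (4 arrays) shared one culture protocol without that conditioning step. All animals were male Fischer rats, whose age the labels do not give, and the labels give a sorted purity of 93 to 97%. The labels call the 4 samples of a population biological replicates but do not say whether equal numbers mark the same animals or cultures.

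Cadherins are calcium-dependent adhesion proteins that bind a like cadherin on the neighbouring cell. The cytoplasmic tail of a classical cadherin holds beta-catenin, which reaches the actin cytoskeleton through alpha-catenin, and a further catenin encoded by Ctnnd1 keeps the cadherin at the membrane. Cells of different tissues carry different cadherins: E-cadherin (Cdh1) is the epithelial form, N-cadherin (Cdh2) that of neurons, glia and many mesenchymal cells, P-cadherin (Cdh3) that of placenta and basal epithelium, VE-cadherin (Cdh5) that of endothelium, K-cadherin (Cdh6) that of kidney and developing neural tissue, and OB-cadherin (Cdh11) that of osteoblasts and fibroblasts. T-cadherin (Cdh13) lacks the cytoplasmic tail and is held by a lipid anchor, and protocadherin 19 (Pcdh19) belongs to a related family whose members adhere weakly and do not bind beta-catenin.

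The probes whose values carry the results are shown by the opening stretch of their 60 bases, copied from the deposited scanner files, so that the different stretches of Cdh11 and of Cdh13 that were measured can be told apart. The array annotation places them on the rn4 build (RGSCv3.4). Exon and UTR annotation of that build was not used here.
Cdh2 probe: ctttcgttatgggtaaagtatttacaaaac
Pcdh19 probe: atgcacgaggtcaatcctattctgaaggaa
Cdh11 lower-coordinate probe: cgttgaaggggttcatagtcaaaaccaact
Cdh11 higher-coordinate probe: ctccaattgaattgaaataactgactaact
Cdh13 lower-coordinate probe: atcacggacctcagggtgcaggtgtgctct
Cdh13 higher-coordinate probe: catggcgtacctatgaagagaccaacaggt
Cdh1 probe: ttgctgtactcacataattttggaagcaaa
The Cdh2 probe lies at chr18:8049328-8049387 on the minus strand, and the Pcdh19 probe at chrX:121109655-121109714 on the minus strand. The Cdh11 probes start at 2381727 and 2382456 on the plus strand of chromosome 19, 729 bases apart. The Cdh13 probes start at 49566338 and 49574917 on the plus strand of chromosome 19, 8579 bases apart. The Cdh1 probe lies at chr19:36511853-36511912 on the plus strand.

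Levels are log2 processed signals less their array's 75th percentile, so a level of 0 is that percentile, and a level is never compared between probes. The share of spots well above background, as the scanner software marks it, was 66.4 to 70.6% on TRKA-TGF arrays, 51.4 to 57.5% on TRKA arrays, 70.7 to 72.4% on CD90 arrays and 68.5 to 71.2% on p75 arrays. The median SD of a gene over 4 replicates was 0.541 in TRKA-TGF, 1.08 in TRKA, 0.68 in CD90 and 0.65 in p75 cells, so genes varied most between replicates in TRKA cells. Slide 1 held the TRKA and p75 arrays and slide 2 the TRKA-TGF and CD90 arrays, with a scan each, so that TRKA against p75 and TRKA-TGF against CD90 are comparisons within a slide, and in the other 4 slide and population cannot be told apart. Within a slide each population filled 1 row, and row and population cannot be told apart. Thy1, which encodes CD90, stood at 3.34 ± 0.29 in CD90 cells against −1.69 ± 0.34 in p75 cells, and Ngfr, which encodes p75, at −0.45 ± 0.71 in TRKA-TGF cells against 3.03 ± 0.24 in p75 cells (SD, n = 4).

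The members differed in where they were high. Cdh2 was highest in p75 cells, Pcdh19 and Cdh11 were highest in CD90 cells, Cdh13 was high in both TRKA populations by one probe and in CD90 cells by the other, and Cdh1 was measured mainly in TRKA cells. Cdh3, Cdh5 and Cdh6 passed the test in no comparison. The plot of levels by array shows these patterns with every array.

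**Figure D1:**
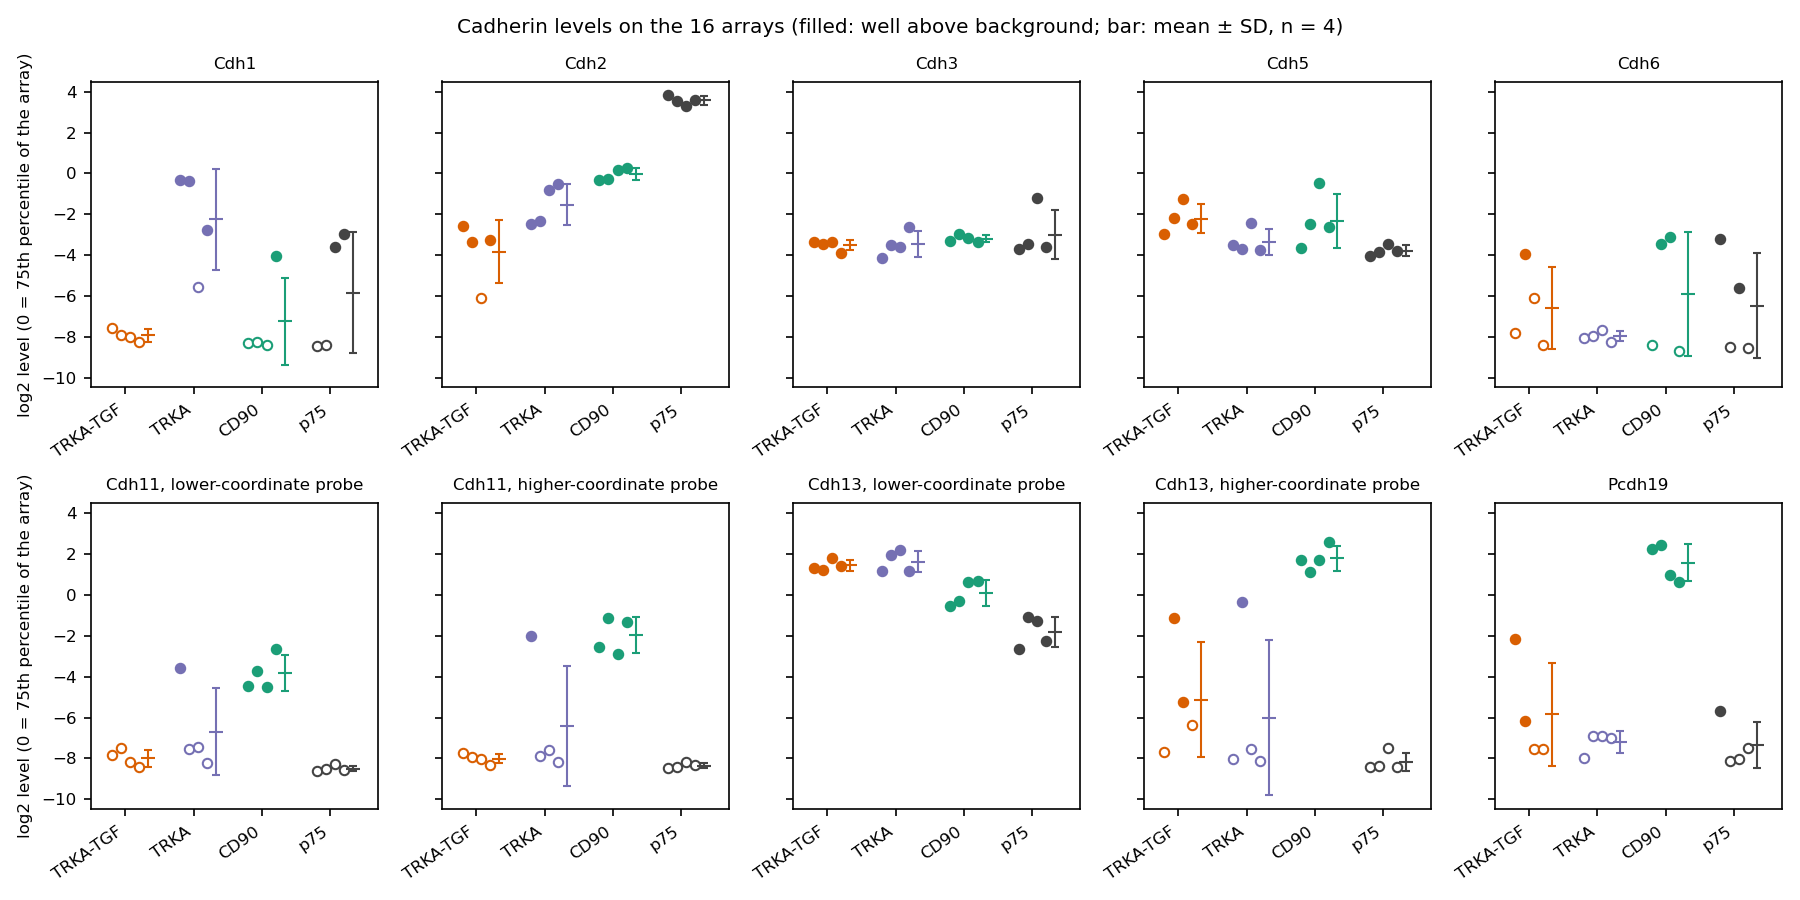
Log2 level (0 is the 75th percentile of the array) of the 10 probes in TRKA-TGF, TRKA, CD90 and p75 cells. Each point is an array, filled where the probe was well above background, and the bar is the mean ± SD (n = 4). The p75 arrays of Cdh2 lie between 3.31 and 3.82, above all other arrays, and the CD90 arrays of Pcdh19 lie between 0.64 and 2.43.

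Cdh2 (Entrez 83501), the cadherin through which Schwann cells and olfactory ensheathing glia hold on to each other and to axons, was highest in p75 cells and lowest in TRKA-TGF cells. Its levels were −2.59, −3.34, −6.08 and −3.27 on the TRKA-TGF arrays, and −2.48, −2.32, −0.82 and −0.51 on the TRKA arrays. They were −0.30, −0.29, 0.18 and 0.29 on the CD90 arrays and 3.82, 3.56, 3.31 and 3.60 on the p75 arrays. By these scaled levels the 4 populations did not overlap in any of the 6 pairs. Per pair, arrays did not overlap for 18.9 to 30.8% of all genes. The highest TRKA-TGF array (−2.59) lay close to the lowest TRKA array (−2.48). Before scaling, processed signals of 14.74 to 205.8 in TRKA-TGF and 182.3 to 658.6 in TRKA cells overlapped. Signals were 879.8 to 1408 in CD90 cells, and the lowest p75 array had 13140. The probe is printed in 10 spots, whose SD within an array was 0.027 to 0.41, and it was well above background on 15 of 16 arrays, TRKA-TGF replicate 3 being the exception.

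Against p75 cells, Cdh2 was 168-fold lower in TRKA-TGF cells (log2 difference −7.39 ± 0.65, SE; adjusted p = 2.22e-06, limma with Benjamini-Hochberg adjustment over all genes), 34.4-fold lower in TRKA cells (−5.11, adjusted p = 3.76e-05) and 12.1-fold lower in CD90 cells (−3.60, adjusted p = 0.00268). TRKA-TGF cells also lay below CD90 cells (−3.79, adjusted p = 0.001). The order of TRKA and CD90 cells was not established, since that difference of −1.50 did not pass (adjusted p = 0.0903); with normexp background correction it was −1.29 and passed (adjusted p = 0.0182). TRKA-TGF cells fell below TRKA cells by 4.88-fold (−2.29, adjusted p = 0.0191). That last call was lost when arrays were weighted by their quality (−2.18, adjusted p = 0.117), when the other 2 populations were left out of the fit (adjusted p = 0.113) and without TRKA replicate 4 (−1.95, adjusted p = 0.0527), and without TRKA-TGF replicate 3 the difference was −1.53. Without that same array, the difference of TRKA-TGF cells was −6.64 to p75 and −3.04 to CD90 cells. Beside Cdh2, the summed level of 12 glial markers, in multiples of the 75th percentile, was 2.53 to 2.93 in TRKA-TGF, 0.263 to 0.946 in TRKA, 4.02 to 5.17 in CD90 and 104 to 113 in p75 cells. All 12 glial markers were above background on every p75 array, while Ngfr, S100b, Ncam1, Cdh19 and Npy were so on no TRKA array; their part in the Cdh2 result was not tested. In such bulk samples, fewer cells of a type and less RNA per cell cannot be told apart.

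Cdh1 (Entrez 83502), E-cadherin, was seen in TRKA cells and was not above background on any TRKA-TGF array. Its levels were −7.55, −7.88, −8.01 and −8.27 on the TRKA-TGF arrays against −0.30, −0.39, −5.54 and −2.76 on the TRKA arrays. In processed signal the TRKA arrays read 896.3, 695.7, 16.26 and 138.1, and replicate 3 was not well above background. On CD90 arrays Cdh1 stood at −8.28, −8.23, −8.37 and −4.06, and on p75 arrays at −8.42, −8.37, −3.62 and −2.95. CD90 replicate 4 and p75 replicates 3 and 4 were the arrays above background there, so Cdh1 was patchy in 3 of the 4 populations.

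Cdh1 was at least 12.1-fold lower in TRKA-TGF than in TRKA cells (log2 difference −5.68 ± 1.48, SE; adjusted p = 0.0121). It was also higher in TRKA than in CD90 cells (4.98, adjusted p = 0.018), although TRKA replicate 3 lay below CD90 replicate 4. This second call was lost with array weights (5.34, adjusted p = 0.0547) and without CD90 replicate 3 (4.61), TRKA replicate 1 (4.34) or TRKA replicate 2 (4.37), each with an adjusted p of 0.05 to 0.0505. Without CD90 replicate 4 or TRKA replicate 3 it was 6.04 and 6.08, and the difference between TRKA-TGF and TRKA cells was −5.03, −5.06 and −6.77 without TRKA replicate 1, 2 and 3. TRKA against p75 cells gave 3.59, which did not pass (adjusted p = 0.0757); it passed with quantile normalization (4.26, adjusted p = 0.0156), with normexp background correction (2.16, adjusted p = 0.0154), and without TRKA replicate 3 (4.69) or p75 replicate 4 (4.55). The summed level of 10 markers of epithelial cells was 0.293 to 0.713 in TRKA-TGF, 0.28 to 0.448 in TRKA, 0.598 to 1.58 in CD90 and 0.743 to 2.09 in p75 cells. The keratins Krt8 and Krt19 were above background on no TRKA array, and Epcam and Krt19 on no TRKA-TGF array. Krt14, Ocln and Esrp1 were above background on all 4 TRKA arrays, but not on these alone. Krt14 was so on every array of all populations, Esrp1 also on all TRKA-TGF and p75 arrays, and Ocln also on all p75 arrays. No epithelial marker was called in TRKA-TGF against TRKA; in TRKA against CD90, 1 of 10 was higher (Ocln, of tight junctions, 2.32, adjusted p = 0.034) and 1 lower (Krt8, −6.82, adjusted p = 0.00171). The part of these markers in the Cdh1 result was not tested. Cdh1 passed the filter on dim probes only with its TRKA arrays, so the filter already favoured a higher level in TRKA cells.

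Cdh3 (Entrez 116777, chr19:36393714-36393773), P-cadherin, was above background on all 16 arrays at a similar low level. It stood at −3.50 ± 0.25 in TRKA-TGF, −3.45 ± 0.61 in TRKA, −3.19 ± 0.18 in CD90 and −2.99 ± 1.18 in p75 cells (SD, n = 4). The wide p75 value comes from replicate 3 at −1.22, against −3.71 to −3.44 on the other p75 arrays. No comparison passed, and TRKA-TGF and CD90 arrays did not overlap by a margin within their spread (−0.31, adjusted p = 0.772). The scaling decided whether Cdh3 was called in TRKA cells against CD90 and TRKA-TGF cells. With quantile normalization TRKA lay above CD90 (1.38, adjusted p = 0.0277), the opposite sign to the −0.26 of the percentile scaling. TRKA-TGF then lay below TRKA (−1.69, adjusted p = 0.0135), with the same sign as the −0.05 of the percentile scaling.

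Cdh5 (Entrez 307618, chr19:779665-779724), VE-cadherin of endothelial junctions, was likewise above background on all 16 arrays. Its levels were −2.94, −2.20, −1.23 and −2.47 on TRKA-TGF arrays and −3.49, −3.71, −2.42 and −3.75 on TRKA arrays. They were −3.67, −2.49, −0.49 and −2.64 on CD90 arrays and −4.06, −3.82, −3.43 and −3.77 on p75 arrays. The p75 arrays were the lowest as a set, and TRKA-TGF and p75 arrays did not overlap. That difference of 1.56 ± 0.58 (SE) did not pass (adjusted p = 0.0907); it passed with array weights (1.47, adjusted p = 0.0472) and when the other 2 populations were left out (adjusted p = 0.023). Quantile normalization also raised TRKA above p75 cells (1.90, adjusted p = 0.0245, against 0.43 with the percentile scaling). The summed level of the 8 endothelial markers tested, of 10, was 3.28 to 5.37 in TRKA-TGF, 0.569 to 5.15 in TRKA, 0.178 to 2.04 in CD90 and 0.219 to 1.93 in p75 cells. Pecam1 was above background on no CD90 or p75 array, and Tie1 on no p75 array. Kdr, Flt1, Vwf, Egfl7 and Cldn5, in contrast, were so on all p75 arrays, and Cldn5 was highest there (−1.02 ± 1.55, SD). In TRKA-TGF against p75 cells, 2 of the markers were called higher and 1, Cldn5, lower. The part of these markers in the Cdh5 levels was not tested.

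Cdh6 (Entrez 25409, chr2:62548312-62548371), K-cadherin, was above background on 5 arrays scattered over 3 populations. These were TRKA-TGF replicate 2 at −3.95, CD90 replicates 2 and 3 at −3.47 and −3.09, and p75 replicates 1 and 3 at −3.20 and −5.62. No TRKA array was above background, the other arrays lay between −8.67 and −6.08, and no comparison passed (adjusted p of 0.318 to 0.982).

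Cdh11 (Entrez 84407), OB-cadherin of mesenchymal cells, was a CD90 gene by both of its probes. By the higher-coordinate probe, which stands for the gene in the tests, levels were −7.74, −7.91, −8.05 and −8.31 on TRKA-TGF arrays and −2.01, −7.88, −7.59 and −8.16 on TRKA arrays. They were −2.53, −1.13, −2.87 and −1.32 on CD90 arrays and −8.47, −8.43, −8.15 and −8.33 on p75 arrays. All 4 CD90 arrays were above background and, outside CD90 cells, TRKA replicate 1 alone. The lower-coordinate probe marked the same 5 arrays, at −3.56 on TRKA replicate 1 and −4.50 to −2.63 on CD90 arrays.

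Cdh11 was at least 14.8-fold lower in TRKA-TGF than in CD90 cells (log2 difference −6.04 ± 1.04, SE; adjusted p = 0.00104) and at least 18.9-fold higher in CD90 than in p75 cells (adjusted p = 0.00121). By the lower-coordinate probe the bounds were 4.07-fold lower (adjusted p = 0.00231) and 5.19-fold higher (adjusted p = 0.00172). TRKA cells also lay below CD90 cells (−4.44, adjusted p = 0.00435; −2.86, adjusted p = 0.0125 by the other probe), but the groups overlapped through TRKA replicate 1, and the difference was −5.91 without it. This call was lost when the other 2 populations were left out of the fit (adjusted p = 0.0584). Cdh11 passed only through its CD90 arrays, so the filter on dim probes already required a difference of this kind.

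Cdh13 (Entrez 192248), T-cadherin, a receptor for adiponectin on vessel and muscle cells, gave different orders of the populations by its 2 probes. By the lower-coordinate probe, which was the brighter one on average and stands for the gene, levels were 1.34, 1.23, 1.81 and 1.41 on TRKA-TGF arrays and 1.19, 1.95, 2.19 and 1.17 on TRKA arrays. They were −0.55, −0.30, 0.63 and 0.69 on CD90 arrays and −2.62, −1.08, −1.28 and −2.25 on p75 arrays. Both TRKA populations lay above all CD90 arrays and these above all p75 arrays, while TRKA-TGF and TRKA arrays overlapped. All 16 arrays were above background.

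By this probe, Cdh13 was 9.57-fold higher in TRKA-TGF than in p75 cells (log2 difference 3.26 ± 0.41, SE; adjusted p = 7.49e-05), 10.8-fold higher in TRKA than in p75 cells (adjusted p = 2.34e-05) and 3.81-fold higher in CD90 than in p75 cells (1.93, adjusted p = 0.00956). TRKA cells lay 2.83-fold above CD90 cells (1.50, adjusted p = 0.012), a call lost with array weights (1.46, adjusted p = 0.0712). TRKA-TGF cells lay 2.51-fold above CD90 cells (1.33, adjusted p = 0.0451), a call lost with no filter on dim probes (adjusted p = 0.0507), without CD90 replicate 1 (1.11, adjusted p = 0.133) or 2 (1.19, adjusted p = 0.118), and without any 1 of the TRKA-TGF arrays (adjusted p of 0.0713 to 0.12). TRKA-TGF and TRKA cells differed by −0.17 (adjusted p = 0.803). The summed level of 12 macrophage markers was 180 to 187 in TRKA-TGF, 429 to 537 in TRKA, 13.5 to 28.2 in CD90 and 4.6 to 8.26 in p75 cells. Cd163 was above background on no TRKA-TGF array and Ptprc on no p75 array; the part of these markers in the Cdh13 result was not tested.

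The higher-coordinate Cdh13 probe, 8579 bases away, read high in CD90 cells instead. Its levels were −7.69, −1.15, −5.26 and −6.38 on TRKA-TGF arrays and −8.02, −0.33, −7.56 and −8.10 on TRKA arrays. They were 1.72, 1.13, 1.73 and 2.59 on CD90 arrays and −8.42, −8.36, −7.51 and −8.41 on p75 arrays. The probe was above background on all 4 CD90 arrays, on TRKA-TGF replicates 2 and 3, on TRKA replicate 2 and on no p75 array. It passed the filter on dim probes only with its CD90 arrays. With this probe in place of the other, TRKA-TGF cells lay below CD90 cells (−6.91 ± 1.60, SE; adjusted p = 0.00889) and so did TRKA cells (−7.80, adjusted p = 0.00178), the opposite of the first probe. Both probes put CD90 above p75 cells, here by at least 255-fold (adjusted p = 0.0011). TRKA-TGF and TRKA cells were not called against p75 cells by this probe (3.05, adjusted p = 0.261 and 2.17, adjusted p = 0.317). What lies between the probes in the gene was not used here, so the direction of Cdh13 between TRKA and CD90 cells holds for a probe and not for the gene.

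**Figure D2:**
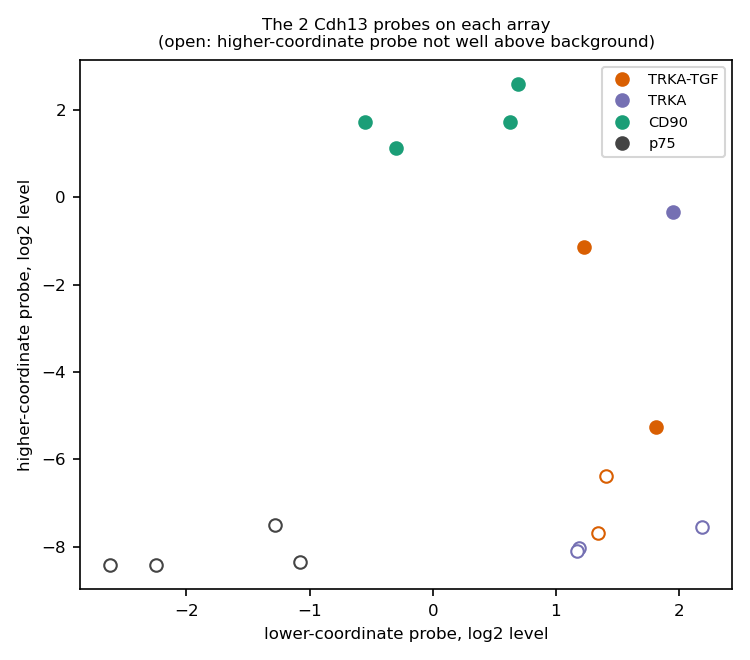
Log2 level of the higher-coordinate Cdh13 probe (vertical) against the lower-coordinate probe (horizontal) on the 16 arrays, open where the higher-coordinate probe was not well above background. The CD90 arrays hold the top of the plot between 1.13 and 2.59, whereas the TRKA-TGF and TRKA arrays lie farthest to the right, between 1.17 and 2.19.

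Pcdh19 (Entrez 317183), a protocadherin of the X chromosome whose loss causes an epilepsy in people, was high in CD90 cells. Its levels were −2.17, −6.17, −7.53 and −7.52 on TRKA-TGF arrays and −7.97, −6.89, −6.88 and −6.98 on TRKA arrays. They were 2.25, 2.43, 0.97 and 0.64 on CD90 arrays, with processed signals of 1792 to 5787, and −5.70, −8.14, −8.04 and −7.49 on p75 arrays. CD90 arrays overlapped with none of the others, and outside them the probe was above background on TRKA-TGF replicates 1 and 2 and p75 replicate 1.

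Pcdh19 was 172-fold lower in TRKA-TGF than in CD90 cells (log2 difference −7.42 ± 1.00, SE; adjusted p = 0.000138) and at least 155-fold lower in TRKA than in CD90 cells (adjusted p = 1.48e-05). It was higher in CD90 than in p75 cells by 8.92 (adjusted p = 4.95e-05), where only p75 replicate 1 was above background. No comparison among TRKA-TGF, TRKA and p75 cells passed. Without TRKA-TGF replicate 1, the difference to CD90 cells was −8.65. Pcdh19 passed the filter on dim probes only with its CD90 arrays, so the filter already favoured a difference of this kind. Summed levels of fibroblast and of muscle markers were highest in CD90 cells, as were Pcdh19, Cdh11 and the higher-coordinate Cdh13 probe. The fibroblast sum was also raised in p75 and TRKA cells, where these probes were mostly not above background. In CD90 against p75, 6 of 12 fibroblast and 4 of 8 muscle markers were called higher and 0 lower. Postn stood at 4.77 in CD90 and 4.78 in p75 cells. The summed level of 12 fibroblast markers was 7.43 to 15.3 in TRKA-TGF, 109 to 146 in TRKA, 483 to 554 in CD90 and 193 to 202 in p75 cells, with Col6a1, Col6a2, Lum and Dcn above background on no TRKA array. That of 8 smooth muscle and pericyte markers was 1.11 to 5.6, 1.37 to 8.74, 97.1 to 111 and 17.7 to 23.2 in the same order of populations, with Lmod1 and Rgs5 above background on no TRKA or p75 array. The part of either set in these levels was not tested.

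**Figure D3:**
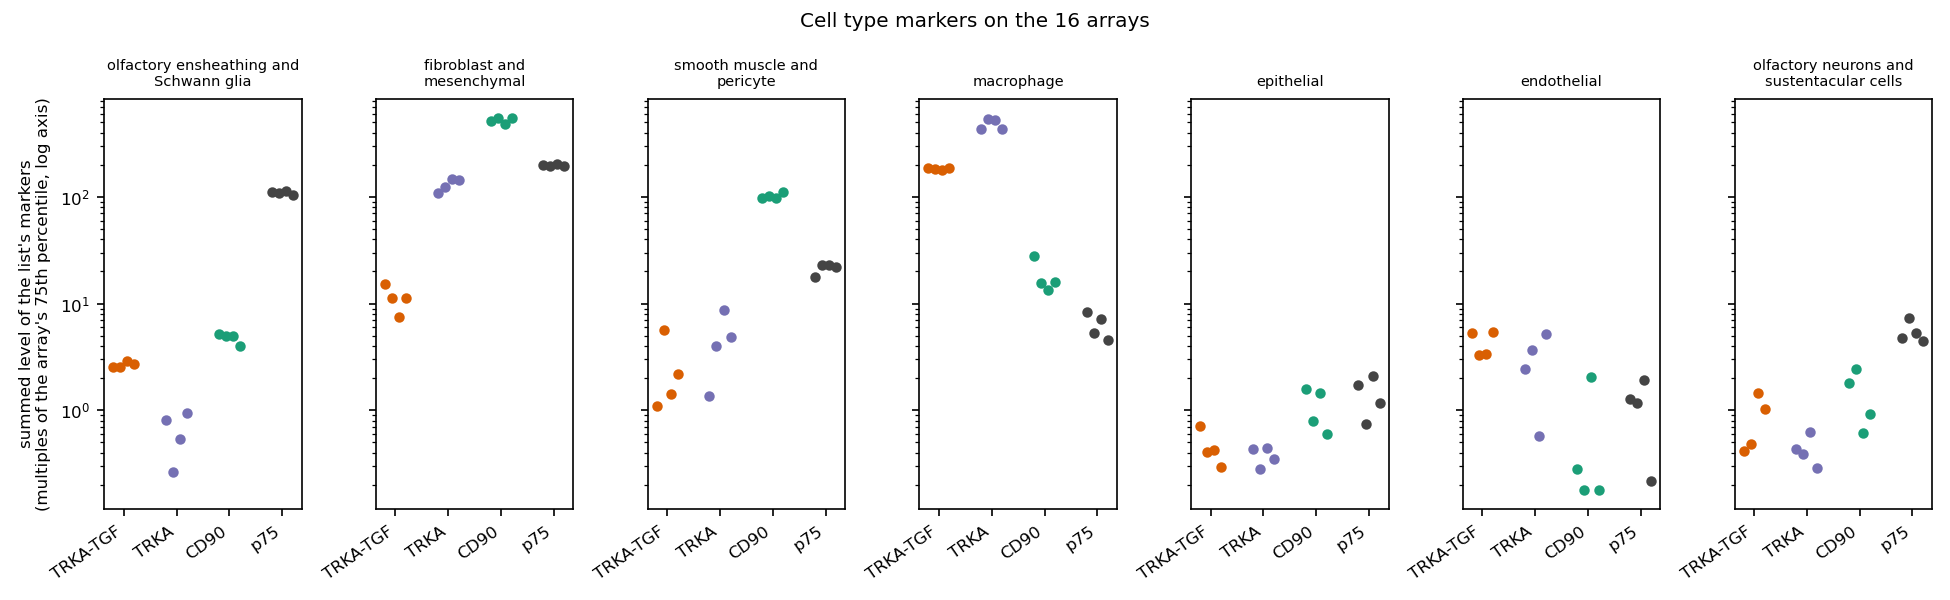
Summed level of the markers of each cell type list on every array (log axis, multiples of the array's 75th percentile) for TRKA-TGF, TRKA, CD90 and p75 cells. Glial markers reach 104 to 113 on p75 arrays and macrophage markers 429 to 537 on TRKA arrays, while epithelial markers stay between 0.28 and 2.09 on all arrays.

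The comparisons among the populations follow, as counts of the 8 members. A gene was called at a Benjamini-Hochberg adjusted p under 0.05, and each count stands beside the share of all 20565 genes called. All 8 members passed the filter on dim probes, but Cdh1, Cdh6, Cdh11 and Pcdh19 were above background on only 5 to 7 arrays. Cdh11 and Pcdh19 passed only with their CD90 arrays. Cdh1 was above background on 3 TRKA, 1 CD90 and 2 p75 arrays, and Cdh6 on 1 TRKA-TGF, 2 CD90 and 2 p75 arrays. No single population's arrays were enough for Cdh1 or Cdh6 to pass. Cdh1 still passed only with its TRKA arrays, and Cdh6 only with both its CD90 and its p75 arrays.

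In TRKA-TGF against TRKA cells, which asks what conditioning with transforming growth factor alpha accompanied, Cdh1 and Cdh2 were lower and no member was higher. That is 2 of 8 members called lower, where 10.9% of all genes were lower, 15% higher and 25.9% called in either direction, so that the members' share did not exceed that of all genes. Among members the arrays of the 2 populations did not overlap for 2 genes, as for 25.6% of all genes, and the median member difference was −0.11 against 0.35 over all genes. In TRKA-TGF against CD90 cells, 1 member was higher (Cdh13, by the lower-coordinate probe) and 3 were lower (Cdh2, Cdh11 and Pcdh19). Over all genes, 7.88% were higher, 7.04% lower and 14.9% called. The arrays did not overlap for 5 members and for 28.9% of all genes, and the medians were −0.68 for the members and 0.17 for all genes. In TRKA-TGF against p75 cells, Cdh13 was higher and Cdh2 lower, against 8.44% of all genes higher, 6.91% lower and 15.4% called. The arrays did not overlap for 3 members and for 29.4% of all genes, and the medians were 0.12 and 0.19.

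In TRKA against CD90 cells, Cdh1 and Cdh13 (lower-coordinate probe) were higher and Cdh11 and Pcdh19 lower, 4 of 8 members in all. Here 16% of all genes were higher, 17.8% lower and 33.8% called, and the arrays did not overlap for 3 members and for 29.3% of all genes. The medians were −1.26 for the members and −0.23 for all genes. In TRKA against p75 cells, Cdh13 was higher and Cdh2 lower, where 16.9% of all genes were higher, 17.9% lower and 34.8% called. The members' share called was below that of all genes. The arrays did not overlap for these 2 members and for 30.8% of all genes, and the medians were 0.29 and −0.12. In CD90 against p75 cells, Cdh11, Cdh13 and Pcdh19 were higher and Cdh2 was lower. Over all genes 3.74% were higher, 3.46% lower and 7.2% called, the arrays did not overlap for 4 members and for 18.9% of all genes, and the medians were 1.01 and 0.07. The comparisons share populations, so their counts are not independent of each other.

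**Figure D4:**
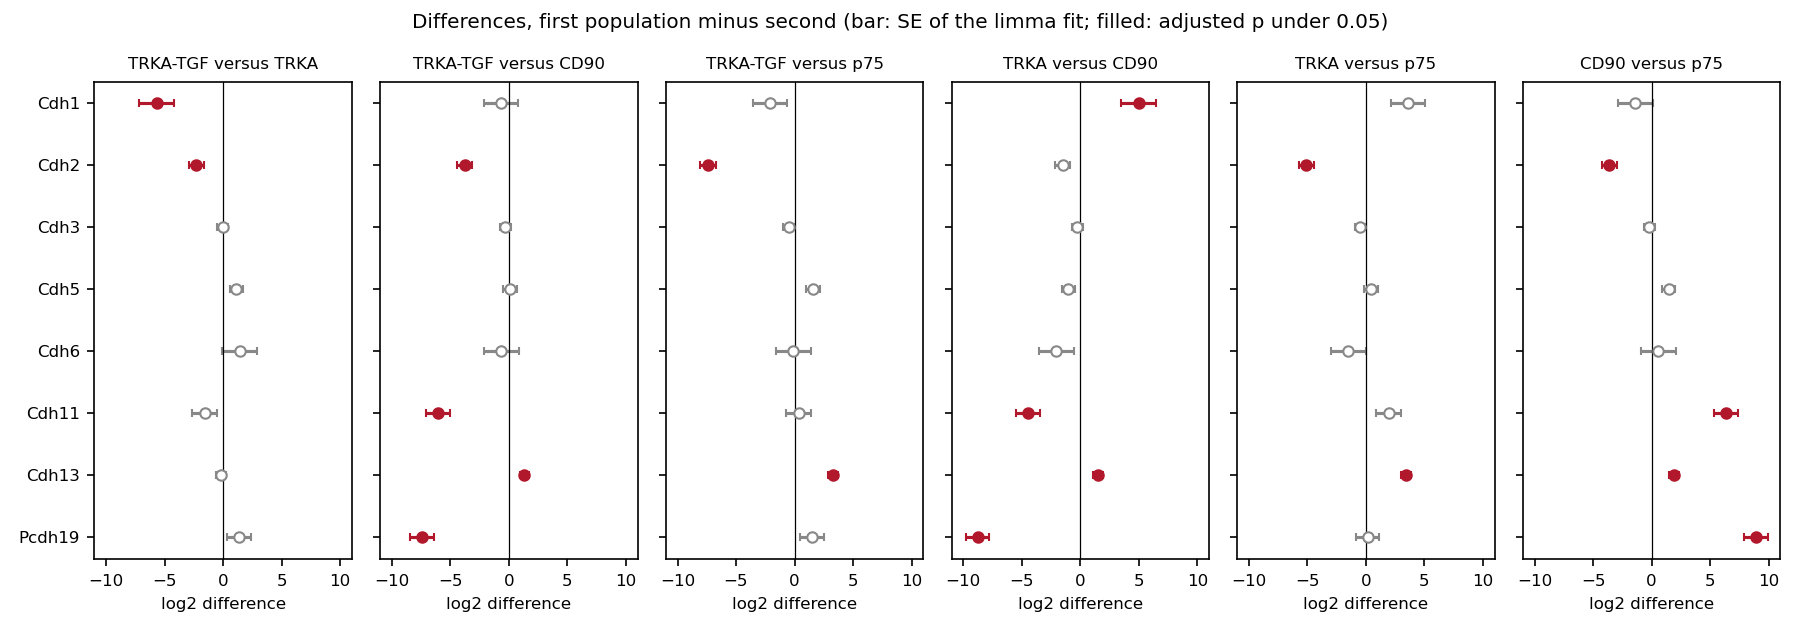
Log2 difference of the 8 members in the 6 comparisons, first population minus second, with the SE of the limma fit. Filled points passed an adjusted p of 0.05. Pcdh19 differs by −7.42 between TRKA-TGF and CD90 cells and by 8.92 between CD90 and p75 cells, and Cdh3, Cdh5 and Cdh6 have no filled point.

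Scaling shifts every difference that involves TRKA cells. Under quantile normalization the median of all genes moved by −0.49 in TRKA-TGF against TRKA, 0.45 in TRKA against CD90 and 0.36 in TRKA against p75, and by −0.12 to −0.04 in the other comparisons. Under normexp background correction these shifts were −0.37, 0.33 and 0.38, and −0.05 to 0.05 elsewhere. Single genes moved farther: Cdh5 in TRKA against CD90 turned to 0.52 under quantile normalization, against −1.02, and in TRKA-TGF against TRKA to −0.38, against 1.13, called in neither.

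Of 13 other classical and related cadherins, 11 were on the array and 6 were tested. One of them, Cdh19, a cadherin of Schwann cell precursors and other glia that was also among the glial markers, was called in every comparison but TRKA against CD90. Its levels were −3.37, −4.99, −4.76 and −8.28 on TRKA-TGF arrays and −8.01, −7.82, −7.56 and −8.10 on TRKA arrays. They were −8.23, −8.42, −8.33 and −8.53 on CD90 arrays and 0.75, 0.70, 0.52 and 0.56 on p75 arrays. Cdh19 was above background on all p75 arrays, on 3 TRKA-TGF arrays and on none of the rest, so it passed the filter on dim probes only with its p75 arrays. It was at least 80.7-fold lower in TRKA (adjusted p = 8.58e-07) and at least 119-fold lower in CD90 than in p75 cells (adjusted p = 2.12e-06), and lower in TRKA-TGF than in p75 cells (−5.98, adjusted p = 4.39e-05). It was at least 1.27-fold higher in TRKA-TGF than in TRKA cells (adjusted p = 0.0195), a call lost with array weights (adjusted p = 0.225), with normexp correction (0.52, adjusted p = 0.136), when the other 2 populations were left out (adjusted p = 0.119), and without TRKA-TGF replicate 1, 2 or 3 (1.86, 2.40 and 2.32). Its call in TRKA-TGF against CD90 (3.03, adjusted p = 0.0104) was lost when the other populations were left out (adjusted p = 0.062) and was 2.37 without TRKA-TGF replicate 1. Without TRKA-TGF replicate 4, the array not above background, the differences were 3.50 to TRKA, 4.01 to CD90 and −5.01 to p75 cells, and without replicate 1 the last was −6.64. Cdh2 and Cdh19 were thus both highest in p75 cells, and TRKA-TGF cells were lower than TRKA cells in Cdh2 and higher in Cdh19.

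The 9 other non-clustered protocadherins, adhesion proteins mostly of the nervous system, were all tested. In TRKA-TGF cells 1 was higher than in TRKA (Pcdh11x, 3.93, adjusted p = 0.00814, lost with quantile normalization, 2.41, adjusted p = 0.0576), 3 were lower than in CD90 and 4 lower than in p75 cells. In TRKA cells 5 were lower than in CD90 and 6 lower than in p75 cells, and none was higher. Of these calls, Pcdh17 in TRKA against CD90 and in TRKA-TGF against p75, and Pcdh18 and Pcdh7 in TRKA against p75, were lost in 7 to 11 refits each, with single arrays of both populations left out among them. In CD90 cells 2 were higher than in p75 and 1 was lower. The list medians were 0.33 for TRKA-TGF against TRKA, −0.99 against CD90 and −2.24 against p75, −3.04 for TRKA against CD90, −3.55 for TRKA against p75, and 0.71 for CD90 against p75. Medians over all genes were 0.35, 0.17, 0.19, −0.23, −0.12 and 0.07 in the same order. Over all genes, 17.8% were lower in TRKA than in CD90 cells and 17.9% lower than in p75 cells. For TRKA-TGF cells, 15% were higher than in TRKA, 7.04% lower than in CD90 and 6.91% lower than in p75 cells. In CD90 against p75 cells, 3.74% were higher and 3.46% lower.

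Pcdh18 and Pcdh9 shared the CD90 pattern of Pcdh19. Pcdh9, but not Pcdh18, passed the filter on dim probes only with its CD90 arrays, as Pcdh19 did. Pcdh18 stood at −6.50 ± 1.93 in TRKA-TGF, −7.90 ± 0.25 in TRKA, 1.21 ± 0.52 in CD90 and −4.83 ± 2.65 in p75 cells. It was at least 120-fold lower in TRKA than in CD90 cells (adjusted p = 2.84e-05) and higher in CD90 than in p75 cells (6.04, adjusted p = 0.00328). Pcdh9 was at least 136-fold lower in TRKA-TGF (adjusted p = 2.2e-05) and at least 122-fold lower in TRKA (adjusted p = 9.95e-06) than in CD90 cells, and higher in CD90 than in p75 cells (4.29, adjusted p = 0.015, lost when the other populations were left out, 0.0947). In CD90 against p75, leaving out p75 replicate 4 gave 4.84 for Pcdh18 and 2.90 for Pcdh9, leaving out p75 replicate 1 or 3 gave 6.70 for Pcdh18, and leaving out p75 replicate 2 gave 4.92 for Pcdh9. Pcdh1 went the other way: it stood at −3.29 ± 0.80 in TRKA-TGF, −3.29 ± 0.55 in TRKA, −2.84 ± 1.15 in CD90 and 2.56 ± 0.22 in p75 cells, and the differences to p75 were −5.85 for both TRKA populations and −5.40 for CD90 (largest adjusted p = 1.56e-05).

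The catenins and adaptors that tie cadherins to actin were tested for 11 of 12 genes. In TRKA-TGF against TRKA cells 3 were higher: Arvcf (3.71, adjusted p = 0.031), Ctnnal1 (2.56, adjusted p = 0.000868) and Ctnnb1, beta-catenin itself (1.14, adjusted p = 0.0264). With quantile normalization, which lowers this comparison as a whole, Arvcf (3.13, adjusted p = 0.066) and Ctnnal1 (0.85, adjusted p = 0.195) were no longer called, and Ctnnb1 was lost when the other populations were left out (adjusted p = 0.127) or without TRKA replicate 2 or 4 or TRKA-TGF replicate 1 or 2 (adjusted p of 0.057 to 0.0686). Arvcf was also lost without TRKA replicate 1, 2 or 3 or TRKA-TGF replicate 2, 3 or 4 (adjusted p of 0.0552 to 0.0744), with array weights (adjusted p = 0.111) and with the replicate number as a block (adjusted p = 0.0633), and was 4.70 without TRKA replicate 4. TRKA-TGF cells had 2 genes lower than CD90, Ctnnal1 (−1.88, adjusted p = 0.0103) and Ctnnd1 (−1.21, adjusted p = 0.0216), and 3 lower than p75, Jup (−4.98, adjusted p = 0.0113), Ctnnd1 (−1.84, adjusted p = 0.00118) and Ctnnal1 (−1.73, adjusted p = 0.0161). The Ctnnd1 call against CD90 was lost without CD90 replicate 2 or 4 or TRKA-TGF replicate 3 or 4 (adjusted p of 0.0544 to 0.0733), and the Ctnnal1 call against p75 without TRKA-TGF replicate 3 or p75 replicate 2 (adjusted p of 0.0567 and 0.0552). Jup in TRKA-TGF against p75 was −4.25 and −5.83 without TRKA-TGF replicate 2 and 4, and −5.62 without p75 replicate 4.

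In TRKA cells 3 genes of that list were lower than in CD90: Ctnnal1 (−4.44, adjusted p = 4.67e-06), the actin linker Vcl (−4.16, adjusted p = 0.0325) and Ctnnb1 (−2.08, adjusted p = 0.000357). Against p75 cells 4 were lower, Jup, which encodes plakoglobin (−4.97, adjusted p = 0.00569), Ctnnal1 (−4.29, adjusted p = 5.89e-06), Ctnnb1 (−2.14, adjusted p = 0.000279) and Ctnnd1 (−1.38, adjusted p = 0.00453), and Pkp4 was higher (2.49, adjusted p = 0.00541). In CD90 against p75 cells Pkp4 was higher (2.25, adjusted p = 0.0362) and the other 10 were not called. On TRKA arrays Vcl stood at −0.41, −7.91, 0.70 and −0.07, replicate 2 being the array not above background; without it the difference was −2.16 (adjusted p = 0.00226), and without replicate 3 or 4 it was −5.03 and −4.78. The Vcl call was lost without any 1 of the CD90 arrays (lowest adjusted p = 0.0595) and when the other populations were left out (adjusted p = 0.149). The Pkp4 call in CD90 cells was lost without any 1 of the CD90 arrays or p75 replicate 1, 2 or 4 (adjusted p of 0.0533 to 0.107), and that in TRKA cells when the other populations were left out (adjusted p = 0.0531). Jup in TRKA against p75 was −5.83 without TRKA replicate 2 and −5.62 without p75 replicate 4. Ctnna1, alpha-catenin, was called nowhere and was chosen for the plot after its values were seen; it stood at 4.62 ± 0.21 in TRKA-TGF, 3.36 ± 1.21 in TRKA, 4.46 ± 0.13 in CD90 and 4.33 ± 0.14 in p75 cells. The list medians were 0.65, −0.93 and 0.01 for TRKA-TGF against TRKA, CD90 and p75, −1.88 and −1.74 for TRKA against CD90 and p75, and 0.14 for CD90 against p75. The medians and shares called over all genes are those given with the member counts.

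Of 6 transcription factors known to repress Cdh1, 4 were tested, and they split by population. Zeb1 stood at −1.96 ± 1.53 in TRKA-TGF, −6.60 ± 1.45 in TRKA, 3.71 ± 0.16 in CD90 and 3.60 ± 0.29 in p75 cells. TRKA-TGF cells thus lay above TRKA cells (4.63, adjusted p = 0.000426) and below CD90 (−5.67, adjusted p = 9.18e-05) and p75 cells (−5.56, adjusted p = 9.92e-05), and TRKA cells lay below CD90 (−10.31, adjusted p = 2e-07) and p75 cells (−10.19, adjusted p = 1.63e-07). The populations did not overlap in any of these 5 pairs. On the TRKA arrays, Zeb1 levels were −7.74, −6.92, −7.24 and −4.49, above background on replicate 4 alone, and without it the differences were 5.34, −11.01 and −10.90 for TRKA-TGF against TRKA, TRKA against CD90 and TRKA against p75. The same arrays held Cdh1 at −0.30, −0.39, −5.54 and −2.76, and the part of Zeb1 in the Cdh1 levels was not tested.

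Zeb2 ran differently, at 4.83 ± 0.13 in TRKA-TGF, 5.55 ± 0.20 in TRKA, 2.99 ± 0.47 in CD90 and 4.91 ± 0.10 in p75 cells. It was higher than in CD90 cells in TRKA-TGF (1.83, adjusted p = 0.000122) and in TRKA (2.56, adjusted p = 3.06e-06), and lower in CD90 than in p75 cells (−1.91, adjusted p = 0.000152). Its difference of −0.72 between TRKA-TGF and TRKA (adjusted p = 0.0426) was −0.04 with quantile normalization (adjusted p = 0.916) and was lost without any 1 of the TRKA-TGF arrays or TRKA replicate 2, 3 or 4 (adjusted p of 0.0552 to 0.103). Snai2 and Twist1 were CD90 genes. Both passed the filter on dim probes only with their CD90 arrays, so the filter already favoured a difference of this kind. Snai2 was at least 155-fold lower in TRKA-TGF (adjusted p = 1.01e-06) and at least 140-fold lower in TRKA (adjusted p = 6.26e-07) than in CD90 cells, and higher in CD90 than in p75 cells (7.41, adjusted p = 1.56e-05). Twist1 was at least 9.35-fold lower in TRKA-TGF (adjusted p = 1.34e-05) and at least 8.42-fold lower in TRKA (adjusted p = 6.82e-06) than in CD90 cells, and higher in CD90 than in p75 cells (5.05, adjusted p = 3.77e-05). In CD90 against p75, Snai2 was 6.62 and 8.29 without p75 replicate 1 and 2, and Twist1 5.77 without p75 replicate 3. Over the 4 genes, 1 was higher and 1 lower in TRKA-TGF than in TRKA, 1 higher and 3 lower in either TRKA population than in CD90, 0 higher and 1 lower in either than in p75, and 2 higher and 1 lower in CD90 than in p75 cells. The shares of all genes called in each comparison are those given with the member counts.

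**Figure D5:**
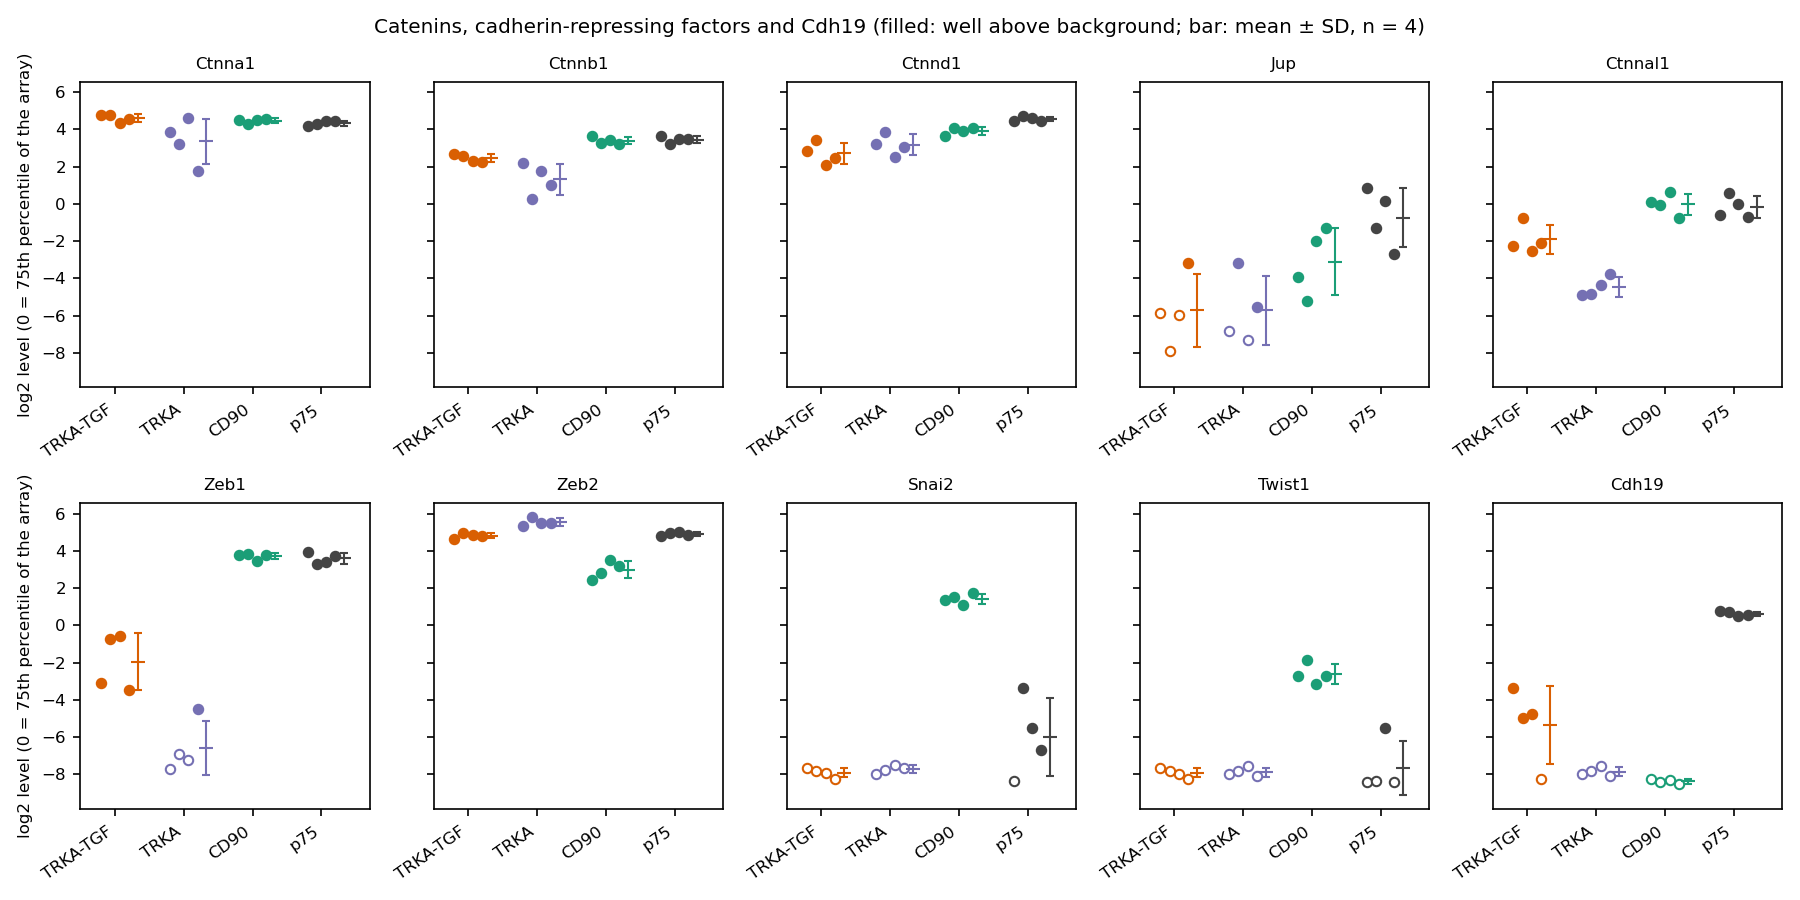
Log2 level (0 is the 75th percentile of the array) of 5 catenin genes, 4 factors known to repress Cdh1 and Cdh19 on the TRKA-TGF, TRKA, CD90 and p75 arrays, with filled points well above background and the mean ± SD (n = 4). Zeb1 lies at −7.74 to −4.49 on TRKA arrays and Snai2 at 1.08 to 1.73 on CD90 arrays, and Cdh19 is filled on p75 arrays and 3 TRKA-TGF arrays only.

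By Pearson correlation over the 16 arrays, the gene with a current symbol most like each member was as follows, given as a description since the arrays share the same 4 populations and scaling. Tspan3 (r = 0.945), Apod (0.921) and Fstl3 (0.917) ran most like Cdh2. Pcdh19 was followed most closely by C1qtnf3 (0.958), the pericyte gene Rgs5 (0.952) and Susd2 (0.946), and Cdh11 by Palmd (0.976), Pax1 (0.926) and Sema3a (0.925). The lower-coordinate Cdh13 probe was most like Card9 (0.957), Nceh1 (0.956) and Dab2 (0.945). Cdh1 was most like Rab24 (0.854), Psmb9 (0.852) and Klf10 (0.844). For the uncalled members the leading genes were Chst7 (0.907), Kcne1 (0.861) and Crybb1 (0.848) for Cdh3, Slc4a8 (0.895), Myom2 (0.895) and Ust (0.873) for Cdh5, and Nat8b (0.818), Zfp709 (0.79) and Spag8 (0.777) for Cdh6.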

How the data were processed

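RNA was isolated on magnetic beads and amplified as cDNA by PCR before Cy3 labelling, per the labels' protocols; amplification of little RNA can widen differences of scarce transcripts. The authors deposited scanner output, in which each spot has a linear intensity, background-subtracted by Feature Extraction (10.7.3.1 per the file headers, 10.5 per the submitters' processing notes). The authors' deposited log2 values ran on a line of slope 1 with quantile-normalized log2 signals centred on each probe's median (r = 0.999998 to 0.999999; column medians −0.0277 to 0.194); how it was scaled and centred is stated nowhere in the labels, and it served as an alternative only.

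From the processed signals, log2 values minus each array's 75th percentile over 58717 non-control spots were computed, with 4259 control spots and outlier flags left out; 0 spots were saturated. Spots of a probe were averaged (30367 probes; 18745 named by RefSeq accession and 2984 by symbol or synonym in the RefSeq gene list of GRCr8, 8638 by the file's own name). Probes well above background on at least 4 of 16 arrays were kept, and the kept probe with the highest mean stood for its gene, which left 20565 genes, 14245 with a current symbol. limma 3.58.1 in R 4.3.3 (data.table, version 1.17.8) fitted 1 mean per population to all 16 arrays, with 6 comparisons and Benjamini-Hochberg adjustment over all genes; the fit was tested on simulated data. A probe above background on no array of a population has only a bound there, written "at least N-fold": the brighter mean over the dimmer mean, raised on each array to its lowest signal of any probe marked above background. Members, gene lists and tests were chosen with earlier results of these data known. Named genes are all 8 members, up to 4 called genes per companion list and comparison with the largest differences, and the 3 genes most alike each member. Alternatives were normexp background correction (offset 50), quantile normalization, the authors' values, no filter, a filter of 8 arrays, flagged spots kept, only the 2 populations compared, array weights, an intensity trend, a replicate block, each replicate left out and the other probe of a gene. The number of arrays limits precision, as does the spread between these samples, part of which may be technical.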

Additional observations from a re-analysis of the deposited data

Results flagged for a closer look

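Of 40 sets of 4 arrays examined (10 probes in 4 populations), 6 held 1 array far from the other 3, where chance gives about 2. Cdh1 on CD90 replicate 4 stood at −4.06, against −8.37 to −8.23 on the other CD90 arrays. Cdh3 on p75 replicate 3 stood at −1.22, against −3.71 to −3.44 on the others. Cdh11 by the higher-coordinate probe stood at −2.01 on TRKA replicate 1, against −8.16 to −7.59, and the lower-coordinate probe was above background on that array too. The higher-coordinate Cdh13 probe stood at −0.33 on TRKA replicate 2, against −8.10 to −7.56, and at −7.51 on p75 replicate 3, against −8.42 to −8.36. Pcdh19 stood at −7.97 on TRKA replicate 1, against −6.98 to −6.88. Neither of the last 2 values, for the p75 array of Cdh13 and the TRKA array of Pcdh19, was well above background, so that they have no order. TRKA replicate 1 and p75 replicate 3 each gave 2 of the 6 values.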

How the results depend on the processing

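Over the members' differences, 780 of the refits kept direction and side of the threshold, 18 lost a call, 16 gained one, 4 reversed and 34 changed sign while called in neither fit. The reversals were Cdh13 by its other probe in TRKA-TGF against CD90 (−6.91) and TRKA against CD90 (−7.80), and Cdh3 in TRKA against CD90 with quantile normalization (1.38) and the authors' values (1.38). Members called fell to 2 in CD90 against p75, 2 in TRKA-TGF against CD90, 1 in TRKA against CD90 and 1 in TRKA-TGF against TRKA with a filter of 8 arrays, which removes Cdh1, Cdh6, Cdh11 and Pcdh19. With array weights they were 2 in TRKA against CD90 and 1 in TRKA-TGF against TRKA, and 1 there also with only the 2 populations. TRKA against p75 gave 4 with quantile normalization, 4 with the authors' values and 4 with normexp, and 1 by the other Cdh13 probe, as did TRKA-TGF against p75 (1). Leaving out 1 array gave 1 to 2 members in TRKA-TGF against TRKA (1 without TRKA replicate 4), 3 to 4 against CD90 in either TRKA population, 2 to 2 in TRKA-TGF and 2 to 3 in TRKA against p75, and 4 to 4 in CD90 against p75. Array weights, which were 0.28 to 0.438 in TRKA and 0.976 to 2.16 elsewhere, raised the genes called to 2241 in CD90 against p75, 4758 in TRKA-TGF against CD90 and 5151 in TRKA-TGF against p75. Equal replicate numbers did not pair the samples (residual r of −0.0346 to 0.0428 over 24 pairs); with the replicate block Cdh5 was called in CD90 against p75 (1.45, adjusted p = 0.0435), TRKA-TGF against TRKA (1.13, adjusted p = 0.0479) and TRKA-TGF against p75 (1.56, adjusted p = 0.0165), and no other member's call changed; of the companion calls the block ended those of Arvcf in TRKA-TGF against TRKA (adjusted p = 0.0633) and Furin in TRKA against CD90 (adjusted p = 0.0677). Calls held in every refit that gave a value were Cdh1 in TRKA-TGF against TRKA, Cdh2 against p75 in all 3 populations and in TRKA-TGF against CD90, Cdh11 in TRKA-TGF against CD90 and CD90 against p75, Cdh13 in CD90 against p75, and Pcdh19 in its 3 comparisons. Of 65 companion calls, 43 held in every refit, 22 were lost in at least 1 and 0 reversed. Dim genes limit this: below background a probe gives only a bound.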

Other observations

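Nectins, immunoglobulin-like adhesion proteins of the same junctions, were all tested (4 of 4). Nectin2 was lower in TRKA than in CD90 (−4.10, adjusted p = 0.0038) and p75 cells (−4.27, adjusted p = 0.00293, limma), with all 16 arrays above background and no overlap; the first call was lost with array weights (adjusted p = 0.0585), and its difference was −3.50 without CD90 replicate 4. Nectin4 was higher in TRKA-TGF than in CD90 (2.29, adjusted p = 0.0217) and p75 cells (2.48, adjusted p = 0.013), the first lost when the other populations were left out (adjusted p = 0.0729) or without CD90 replicate 4, TRKA-TGF replicate 3 or TRKA-TGF replicate 4 (adjusted p of 0.0595 to 0.0637). Without TRKA-TGF replicate 2 these differences were 2.99 and 3.18, and without TRKA-TGF replicate 3 they were 1.70 and 1.89. No nectin was called in TRKA-TGF against TRKA or in CD90 against p75 cells.

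Of 7 genes whose products cut or regulate cadherins, Psen2, a subunit of gamma-secretase, was higher in TRKA-TGF than in TRKA cells (4.19, adjusted p = 0.0164, lost when the other populations were left out, 0.0802; 5.15, 3.29, 3.34 and 4.96 without TRKA replicate 1, 2, 3 and 4). Furin, the protease that trims classical cadherin precursors, was higher in TRKA than in CD90 cells (2.49, adjusted p = 0.0472), a call lost in 9 of 18 refits, among them those without CD90 replicate 3 or 4 or TRKA replicate 1 or 4 (adjusted p of 0.0979 to 0.143), and 3.23 without CD90 replicate 2. No gene of that list was called in the other 4 comparisons.

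Markers of olfactory neurons and sustentacular cells (5 of 8 tested) summed to 0.415 to 1.46 in TRKA-TGF, 0.291 to 0.621 in TRKA, 0.61 to 2.44 in CD90 and 4.49 to 7.29 in p75 cells. Of the 5, only Gap43, which growing axons and some glia express, was called against p75 cells: it stood at −2.68 ± 2.41 in TRKA-TGF, −4.84 ± 2.34 in TRKA, −3.91 ± 3.03 in CD90 and 2.29 ± 0.30 in p75 cells. Omp, the marker of mature olfactory neurons, stood at −6.35 ± 0.44 in p75 cells, and Stmn2 was above background on no TRKA-TGF or TRKA array.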
